A study of Mus musculus with 24 samples.

Results

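The regions described here are the HindIII fragments of mouse chromosome 4 that lie more than 20 Mb from a 4C viewpoint called 154.9, near the distal end of the chromosome. In mm9 coordinates the viewpoint fragment runs from 154951842 to 154952528 on chromosome 4, the position with the highest pooled count in both lines. A fragment was taken when its start lay below 134951842, a rule of distance that uses no measured value, and 37581 of the 42400 fragments listed on chromosome 4 (88.6%) met it. Their median length was 2495 bp, with quartiles of 1206 and 4690 bp. The last fragment inside the limit, from 134944295 to 134960178, held 324 counts pooled over all libraries and the first outside it, from 134960185 to 134969057, held 206.

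The counts come from 8 of the 24 libraries of the study, which measured contacts of 3 viewpoints in mouse embryonic stem cells. One line is OCF2ΔOCT4/SOX2 (the OctSox line below) and the other OCF2ΔYY1 (the YY1 line), both at passage 7 and of strain C57Bl/6 x 129/Sv. Each line was assayed at day 0 and at day 3 with 2 biological replicates, which gives 4 groups of 2 libraries for viewpoint 154.9. What was done to the cells between day 0 and day 3 is not in the labels, nor what the line names stand for, nor whether a line is 1 clone. The labels do not say either whether replicates came from separate cultures, so the tests measure the spread between these libraries, which may be technical.

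In 4C, crosslinked chromatin is cut and ligated, and the fragments joined to one chosen fragment are sequenced, so the counts along a chromosome profile what lay close to that fragment. Contact falls steeply with distance along the chromosome. At ranges of many megabases, chromosome conformation studies find that active, gene-rich stretches tend to meet other active stretches (the A compartment) and inactive stretches other inactive ones (the B compartment), which gives far profiles plateaus with sharp edges. Far contacts are rare in any one cell, and a single fragment at such distances is captured in few cells of a sample.

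The far fragments held between 127638 counts (OctSox day 0 replicate 1) and 419365 counts (YY1 day 3 replicate 2) per library, out of totals of 1318028 to 2279333. The counts are PCR reads without molecular identifiers, so limits drawn from them cover counting error only. A fragment with at least 1 count in a library is called seen there. At a fragment with 0 counts the share of far counts could still be 0.00235% in the shallowest library and 0.000715% in the deepest, taking 3 counts as the limit. One library stood apart: YY1 day 3 replicate 2 had 17 far fragments with 1000 or more counts, which together held 9.63% of its far counts, whereas the other 7 libraries had 0 such fragments.

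Far contact was sparse. Between 13.3% (95% Wilson interval 12.9 to 13.6, OctSox day 3 replicate 1) and 19.9% (19.5 to 20.3, YY1 day 3 replicate 2) of the far fragments were seen in a library, with a mean of 16% ± 2.47 (SD, n = 8). These intervals treat the fragments as independent, although seen fragments were clustered by position. They are therefore too narrow, and they do not measure the spread between libraries. Of the 3562 fragments 5 to 20 Mb from the viewpoint, 51.9% ± 8.74 (SD, n = 8) were seen, and of the 922 fragments at 1 to 5 Mb, 82.3% ± 9.62 (SD, n = 8). The range over libraries of the far fragments lay below both others, while those of the nearer classes (36.4% to 64.3% and 63.6% to 93%) overlapped slightly. A seen far fragment had a median of 10 to 21 counts by library, and in each library between 12.9% and 22.3% of the seen fragments had a single count.

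Contact did not fall steadily with distance across this range. From 20 to 30 Mb away 58.1% ± 11.2 (SD, n = 8) of the fragments were seen, from 30 to 40 Mb 39.4% ± 7.79 and from 40 to 50 Mb 21.2% ± 4.52. The share then fell to 7.16% ± 2.68 at 80 to 90 Mb. Beyond that it was higher again, at 12.7% ± 3.44 from 90 to 100 Mb, 12.2% ± 2.95 from 100 to 110 Mb and 12.3% ± 2.43 from 110 to 120 Mb, and it was 6.78% ± 2.92 at 130 to 140 Mb. The bands at 90 to 120 Mb thus lay above the band at 80 to 90 Mb in mean, although the ranges over libraries overlapped (8.25% to 19.7% at 90 to 100 Mb against 3.74% to 10.2%).

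In fixed 1 Mb windows the same relief appeared in every library. Over 132 windows with at least 100 far fragments, the median window had 9.52% of its fragments seen (mean of 8 libraries), 68 windows lay under 10% and 17 over 40%. Spearman's rho between the window profiles of 2 libraries ran from 0.79 to 0.935 over all 28 pairs of libraries. It ran from 0.824 to 0.907 for the 4 pairs of replicates and from 0.79 to 0.935 for the 8 pairs of different days in a line. The range for replicates lay within that for different days, and all pairs share the fragment list, the viewpoint and the fall with distance. At the level of single fragments the same correlations ran only from 0.154 to 0.431.

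**Figure D1:**
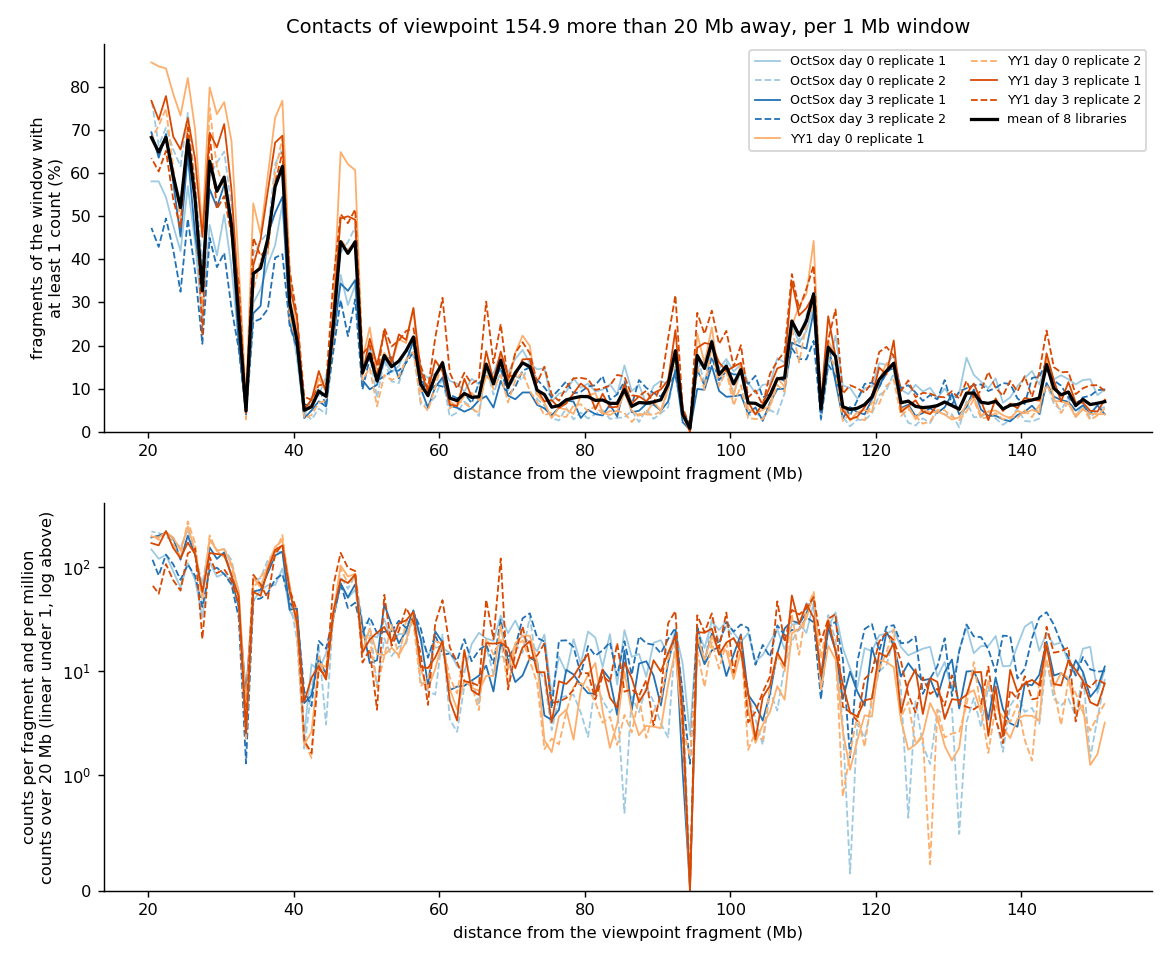
Contacts of viewpoint 154.9 per 1 Mb window against the distance of the window centre from the viewpoint fragment (Mb), for 8 libraries (colours give line and day, solid and dashed lines replicates 1 and 2) and, in the upper panel, their mean (black). The upper panel plots the percentage of fragments with at least 1 count and the lower panel counts per fragment, scaled by each library's far counts, on an axis that is linear under 1 and logarithmic above. The libraries rise and fall at the same windows, with the deepest gap near 94.5 Mb and a separate rise at 108 to 111 Mb.

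The most contacted windows formed 4 blocks on the side nearest the viewpoint. Windows in the top 10% in all 8 libraries numbered 11 of 132, and they ran from 131 to 135 Mb, from 128 to 130 Mb, from 124 to 127 Mb and from 116 to 118 Mb. In the block from 131 to 135 Mb, 65.0% ± 11.7 (SD, n = 8) of the 856 far fragments were seen, from 45.3% in OctSox day 3 replicate 2 to 83.2% in YY1 day 0 replicate 1. The same 2 libraries were the lowest and the highest in each of the 4 blocks.

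The block from 116 to 118 Mb was the farthest of them, with a window centre 38.5 Mb away, and stood beyond a stretch of lower contact. Its window from 116 to 117 Mb had 52.8%, 65.7%, 54.5% and 41.2% of 233 fragments seen in the OctSox libraries (day 0 replicates 1 and 2, then day 3) and 76.8%, 68.2%, 68.7% and 64.8% in the YY1 libraries in the same order. In the nearer window from 120 to 121 Mb the shares were 29.9%, 41.3%, 27.5% and 25.5%, then 53%, 32.6%, 38.6% and 45%. Within each of the 8 libraries the farther window was thus the higher one, although the ranges over libraries overlapped. The mean was 61.6% ± 11.3 (SD, n = 8) from 116 to 117 Mb against 36.7% ± 9.51 from 120 to 121 Mb.

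Farther away, the window from 106 to 107 Mb was the only one with at least 2 times the median of the windows up to 10 on either side in all 8 libraries. It had 44.1% ± 10.2 (SD, n = 8) of 244 fragments seen, from 30.7% in OctSox day 3 replicate 2 to 60.7% in YY1 day 0 replicate 1. The windows from 107 to 108 Mb and from 108 to 109 Mb were at 41.4% ± 12.8 and 44.1% ± 11. This stretch ended at the window from 109 to 110 Mb, at 24.8% ± 5.44, and the next had 8.23% ± 2.88.

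The stretch from 43 to 47 Mb, whose windows are centred 108 to 111 Mb from the viewpoint, was higher than the windows next to it on either side, at 5.28% from 42 to 43 Mb and 12.5% from 47 to 48 Mb. Its 4 windows had 32% ± 6.97, 25.7% ± 5.77, 22.4% ± 5.14 and 25.7% ± 6.58 of their fragments seen (SD, n = 8). In the window from 43 to 44 Mb the shares were 29.3%, 32.5%, 28% and 21.1% in the OctSox libraries and 44.3%, 30.1%, 31.7% and 38.6% in the YY1 libraries, both in the order day 0 replicates 1 and 2, then day 3. All 8 libraries were above the local median in that window, with ratios from 1.82 to 6.52. A second high stretch lay close by: the 11 bins of 100 kb from 40.6 to 41.7 Mb had means of 21.7% to 41.4%, and between both stretches lay bins with 0 fragments seen and many length patterns that recur on the chromosome.

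The lowest window was low in every library. The window from 60 to 61 Mb had 0.792% ± 0.673 (SD, n = 8) of 221 fragments seen, with 0% in YY1 day 0 replicate 1 and YY1 day 3 replicate 1 and at most 1.81% (OctSox day 3 replicate 2), and 95.5% of its fragments were seen in no library. Its median fragment length was 3328 bp. Its neighbour from 61 to 62 Mb had 4.06% ± 0.986, and the window from 62 to 63 Mb 18.8% ± 6.1.

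Nearer the viewpoint there were further gaps of low contact, 1 between the blocks and 1 beyond the farthest of them. The window from 121 to 122 Mb had 4.85% ± 1.4 (SD, n = 8), the stretch from 112 to 114 Mb 5.4% ± 1.53. Both were at most 0.5 times the local median in all 8 libraries, as was the window from 60 to 61 Mb. The window from 38 to 39 Mb was also among the 5 lowest, at 5.18% ± 3.54, but there the libraries varied from 1.27% to 10.8%.

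Contact changed in steps between adjoining windows. Steps at a window with 0% seen in any library gave no geometric mean and were not ranked. This left out the fall from the window at 59 to 60 Mb (17.7% ± 5.51, SD, n = 8) to that at 60 to 61 Mb (0.792% ± 0.673). The ranges over libraries there, 9.93% to 27.6% and 0% to 1.81%, did not overlap. Among the ranked steps, the largest went the same way in all 8 libraries. From the window at 120 to 121 Mb to that at 121 to 122 Mb the share of seen fragments fell 7.61-fold (geometric mean over libraries), and from there to 122 to 123 Mb it rose 5.49-fold. From 42 to 43 Mb into 43 to 44 Mb it rose 6.3-fold, with ratios by library from 3.99 to 11.1. The steps up into the windows from 62 to 63 Mb and from 114 to 115 Mb were 4.58-fold and 4.43-fold.

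In bins of 100 kb, chosen around these steps after they were seen, some edges lay between neighbouring bins. The bin from 120.8 to 120.9 Mb had 32.6% ± 9.82 (SD, n = 8) of its 28 fragments seen and the next had 7.59% ± 3.54 of 28. The ranges over libraries, 17.9% to 46.4% and 3.57% to 10.7%, did not overlap. Contact returned between the bins from 122.4 Mb (6.47% ± 5.03) and from 122.5 Mb (41.1% ± 11.4), where the ranges of 0% to 13.8% and 29% to 61.3% did not overlap either.

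On the viewpoint side of the low stretch from 112 to 114 Mb, contact returned with a second dip. The bin from 113.9 to 114 Mb had 5.24% ± 4.54 of its fragments seen and the next 18.2% ± 7.77 (SD, n = 8), and the bin from 114.7 to 114.8 Mb reached 38.8% ± 6.89. Contact was then low again, at 8.75% ± 6.68 from 115.3 to 115.4 Mb, and 37.1% ± 13 in the next bin, with ranges of 2.5% to 22.5% and 12.9% to 58.1% that overlapped. At the far end of the chromosome the bin from 42.8 to 42.9 Mb had 4.33% ± 3.21 and the bin from 42.9 to 43 Mb 44.4% ± 15.6, with ranges of 0% to 7.69% and 20.7% to 62.1%. The bins hold 11 to 46 fragments, so 1 fragment moves a share by several points.

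**Figure D2:**
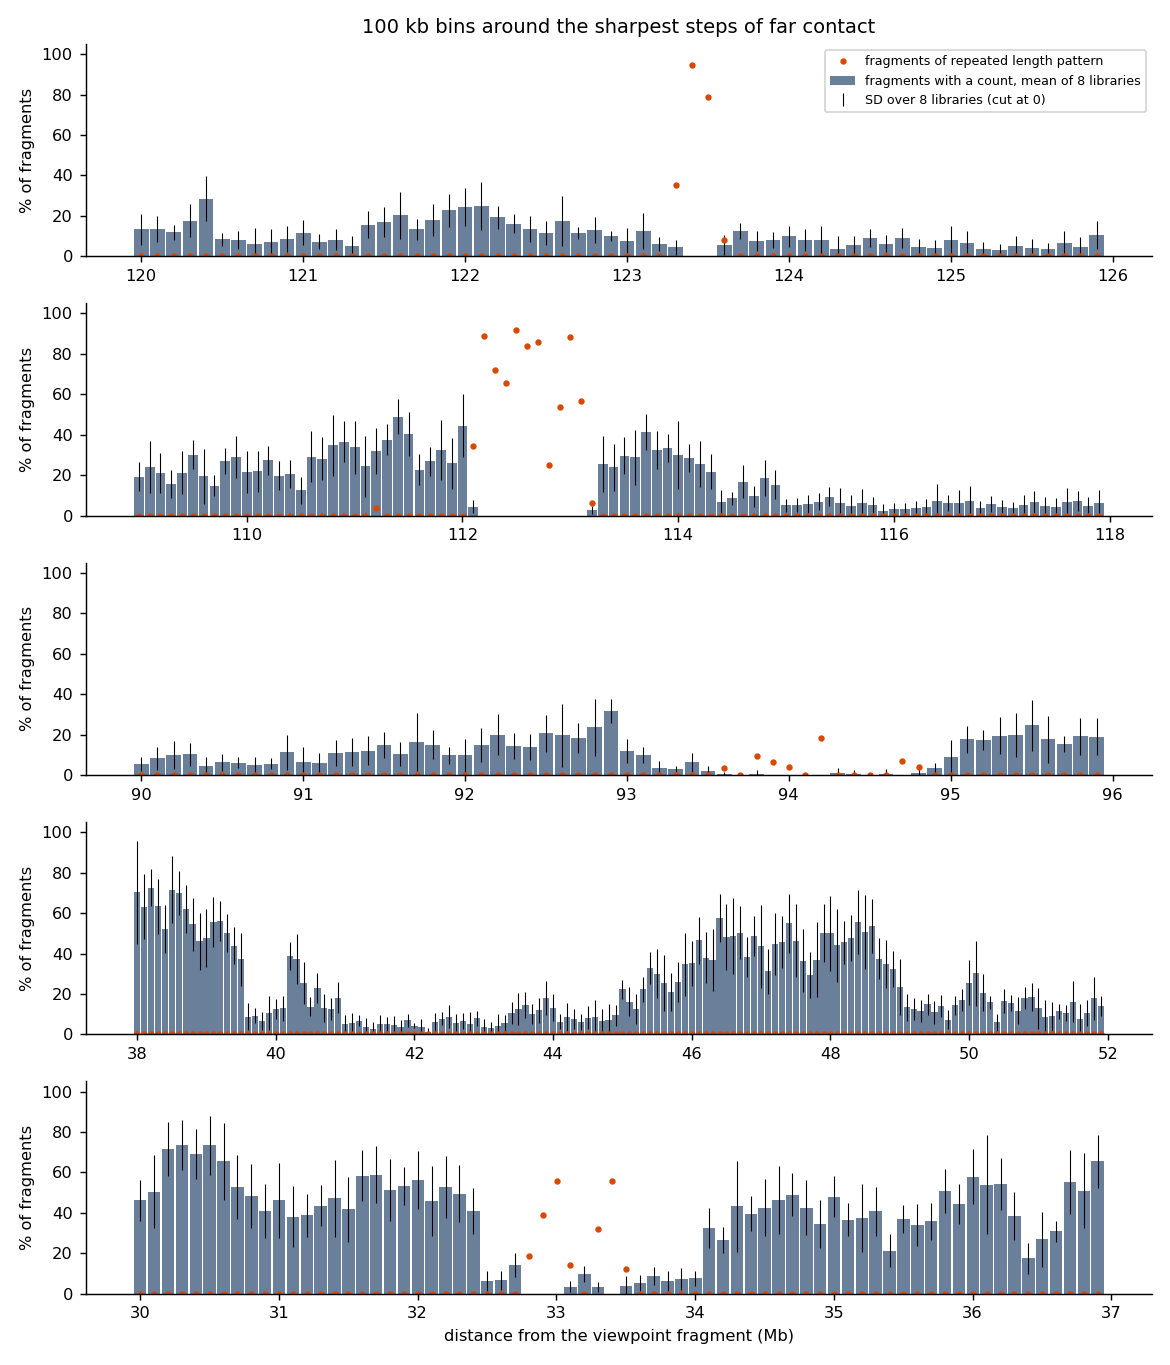
Share of fragments with at least 1 count in bins of 100 kb (bars, mean of 8 libraries, with the SD drawn down to 0 at most) and share of fragments with a repeated length pattern (orange points), against distance from the viewpoint fragment (Mb), for 5 stretches of the chromosome around the 10 largest ranked steps. Steps at a window with 0% seen in any library were not ranked. The bins near 112 to 113 Mb at 0% are those with 25% to 91.9% of repeated patterns, while the low bins near 34 Mb include some with 0%.

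Some of these gaps coincided with repeated sequence in the fragment list. A fragment was called repeated when its length and those of both neighbours recurred together elsewhere on chromosome 4, a sign, read from the list alone, that the stretch occurs more than once in the assembly. This held for 351 far fragments (0.934%), of which 99.7% were seen in no library, against 46.8% of the other far fragments. Reads from a repeated stretch cannot be placed on one copy, and how such reads were treated in counting is not given in the sources used here.

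All 10 bins from 41.8 to 42.8 Mb had 0 fragments seen in any library, and between 25% and 91.9% of their fragments were repeated. Of the window from 42 to 43 Mb as a whole 62.3% was repeated. In the gap at 121 Mb the bins from 121.5 to 121.6 Mb and from 121.9 to 122.2 Mb were at 0% with 18.9% to 55.6% repeated. The 5 bins from 120.9 to 121.4 Mb had 0% repeated and 5.42% to 8.65% of their fragments seen. The stretch from 112 to 114 Mb had 0% repeated. Around 60 Mb the 14 bins from 60.1 to 61.5 Mb had means of at most 2.17% of their fragments seen with 0% to 18.2% repeated, against 17.7% seen in the bin from 59.8 to 59.9 Mb. The part of repeats in these gaps was not tested.

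Few single fragments were contacted again and again. Of the 37581 far fragments 17761 (47.3%) were seen in no library, 8577 (22.8%) in 1 of 8, 4448 in 2 and 348 (0.926%) in all 8. Of fragments 5 to 20 Mb away 16.9% were seen in all 8 libraries. Of the far fragments seen in a library, between 28.8% and 52.5% were also seen in its replicate. YY1 day 0 had 2740 shared fragments, which were 40.3% and 52.5% of those seen in replicates 1 and 2. OctSox day 3 had 1530, which were 30.7% and 28.8%.

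Fragments seen often were nearer and longer. The 348 fragments seen in all 8 libraries had a median distance of 25.8 Mb and a median length of 5016 bp, against 97 Mb and 2404 bp for those seen in none. Of these 348, 334 lay within 40 Mb and 1 beyond 80 Mb. Their share of pooled far counts was 11.8%, close to the 10.4% held by the 8577 fragments seen in 1 library.

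**Figure D3:**
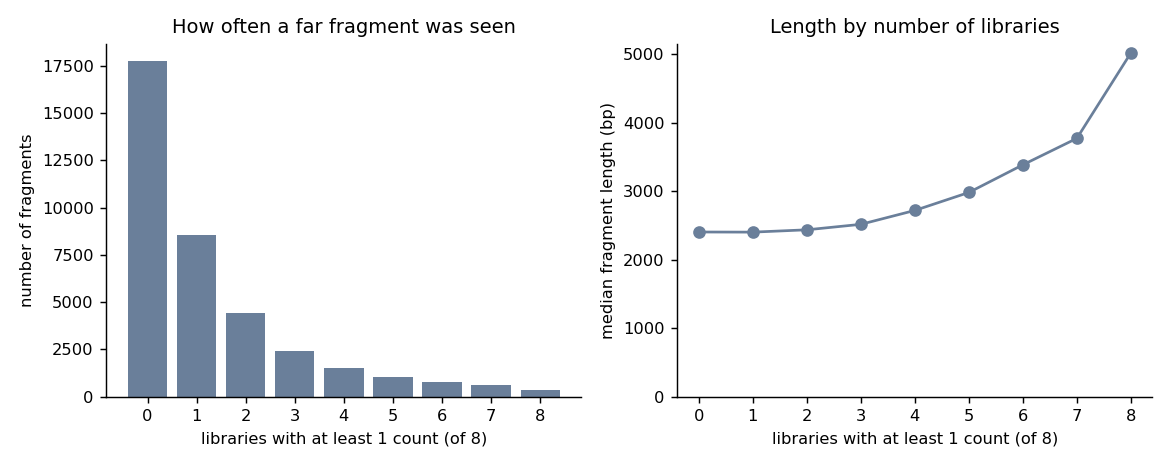
Left, number of far fragments (bars) by the number of libraries, of 8, in which they had at least 1 count. Right, median length (bp) of the fragments in each class; it runs from 2404 bp in the class seen in no library to 5016 bp in the class seen in all 8.

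The 10 far fragments with the highest median share over the libraries lay between 22.3 and 30.2 Mb away. The first was the fragment from 130168776 to 130177584, 24.8 Mb away, with 138, 195, 141 and 137 counts in the OctSox libraries and 157, 200, 101 and 10 in the YY1 libraries (day 0 replicates 1 and 2, then day 3). Its median share of the far counts was 0.0919%, and only YY1 day 3 replicate 2 was far below the rest. The next were the fragments from 132063746 to 132071025 (median 0.0783%) and from 132080849 to 132093016 (median 0.0777%), both 22.9 Mb away.

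By the mean, which single libraries can set, the order differed among the 348 far fragments seen in all 8 libraries. The fragment from 86501841 to 86502028, only 188 bp long and 68.5 Mb away, had 6, 94, 52 and 505 counts in the OctSox libraries and 162, 91, 1 and 11526 in the YY1 libraries. It was the highest of these by mean share, 0.407% ± 0.95 (SD, n = 8), and fell to 0.0719% ± 0.0865 without YY1 day 3 replicate 2. The fragment from 129237964 to 129246532, 25.7 Mb away, came next among them with 0.095% ± 0.111, or 0.0697% ± 0.0913 without that library.

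Beyond 80 Mb, 20 of 20982 fragments were seen in 7 or 8 libraries, and 12 of these 20 (60%) lay in the stretch from 43 to 47 Mb, which holds 4.71% of the fragments at that range. The stretch was chosen after seeing these same data, where it stood out by its share of seen fragments. The concentration is therefore no separate support for it. The fragment from 45016406 to 45018269 was the only one there seen in all 8. It had 1, 26, 2 and 2 counts in the OctSox libraries and 112, 1, 4 and 231 in the YY1 libraries. The fragment from 45487731 to 45508171, 20441 bp long, was seen in 7 libraries, with 33, 23, 68 and 38 counts in the OctSox libraries and 0, 56, 13 and 114 in those of YY1. At both fragments the counts of replicates differed by an order of magnitude or more in at least 1 group.

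Many contacts were seen in 1 library only, and some of these held many counts. Fragments seen in 1 library only had a median of 8 counts there, against 10 for those seen in 2 libraries and 39 for those seen in all 8. Of the 6246 fragments seen in OctSox day 0 replicate 1, 1634 were seen in no other library. The fragments named next are among those with the most counts in this class. The fragment from 62667600 to 62669566, 92.3 Mb away, had 299 counts in YY1 day 3 replicate 2 and 0 in the other 7 libraries. The fragments from 7750272 to 7753621 and from 18277707 to 18279690, 147 and 137 Mb away, had 231 and 230 counts in OctSox day 3 replicate 1 and 0 elsewhere. Such counts are values of 1 library.

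How often a fragment held many counts in another library differed with its count in the first. Of the far fragments with exactly 1 count in a library, between 7.67% (YY1 day 0 replicate 1) and 25.7% (YY1 day 0 replicate 2) had 100 or more counts in another library. Of those with 0 counts 1.86% to 4.48% did, and of those with 10 or more counts 18.3% to 29.9%. In each of the 8 libraries the share for single counts lay between the other two.

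Longer fragments were seen more often. In the tenth of the far fragments that were shortest (25 to 556 bp) 10.9% ± 3.24 (SD, n = 8) were seen, and in the tenth that were longest (7549 bp and more) 21.6% ± 3.12. The 8 classes between ran from 14.4% ± 3.06 to 17.9% ± 2.6. Windows with fewer HindIII fragments also had a larger part of them seen. In the 32 windows with the fewest fragments (203 to 271) the mean was 35.2%, and in the 32 with the most (305 to 342) it was 8.29%. Spearman's rho between fragments per window and the share seen was -0.509 over 131 windows, which all share the same 8 libraries. Fragments per window also rose with distance (rho 0.329), and the share seen fell with it (rho -0.545). Between fragments per window and the ratio to the local median, rho was -0.262.

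The share of counts lying beyond 20 Mb was higher at day 3 than at day 0 when counts outside the viewpoint were the base. OctSox libraries had 13.1% and 15.2% on day 0, then 18.4% and 19.1% on day 3. YY1 libraries had 10.8% and 10.7%, then 26.1% and 29.5%. In both lines the days did not overlap, and the difference was 4.59 percentage points in the OctSox line and 17.1 points in the YY1 line.

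The base of that share moved too. Counts outside the viewpoint fragment and its neighbours were 73.9% and 67.6% of all counts at OctSox day 0, 42.5% and 68% at OctSox day 3, 76% and 85.9% at YY1 day 0 and 35.3% and 62.3% at YY1 day 3. As a share of all counts, the far fragments held 9.68% and 10.3% against 7.83% and 13% in the OctSox line. In the YY1 line they held 8.18% and 9.15% against 9.21% and 18.4%. On this base the days overlapped in the OctSox line, and the mean difference over both lines was 2.78 points (two-sided exact permutation p = 0.389), a calculation added after seeing the data.

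In all, 6 properties of the far contacts were compared between the days by a two-sided exact permutation of day labels within lines, whose 36 arrangements cannot give a p below 0.0556. The share of counts beyond 20 Mb differed by 10.8 points (exact permutation p = 0.0556, adjusted p = 0.333 over the 6 properties). The share of far fragments seen differed by 0.637 points, from 15.7% ± 2.02 to 16.3% ± 3.15 (SD, n = 4), and at an equal depth of 127638 far counts the number seen was 5717 ± 831 at day 0 and 5626 ± 863 at day 3. Among OctSox libraries that number was 6246 and 5134 at day 0 and 4822 and 4945 at day 3, and in the YY1 line 6596 and 4893 against 6479 and 6258. The days did not overlap in the OctSox line and overlapped in the YY1 line.

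The top 1% of the far fragments held 30.8% ± 3.74 of the far counts at day 0 and 33.6% ± 5.37 at day 3 (SD, n = 4). Fragments seen in no other library held 10.9% ± 7.94 and 11.7% ± 4.45. Contact against distance, both as log10 and over bands of 10 Mb, had a slope of -1.62 ± 0.476 at day 0 and -1.28 ± 0.293 at day 3. The OctSox replicates differed widely, with -0.915 and -1.77 at day 0 and -1.43 and -0.859 at day 3. The adjusted p from the exact permutation test was 0.833 for each of these 3 properties, for the share of fragments seen and for the number seen at equal depth.

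**Figure D4:**
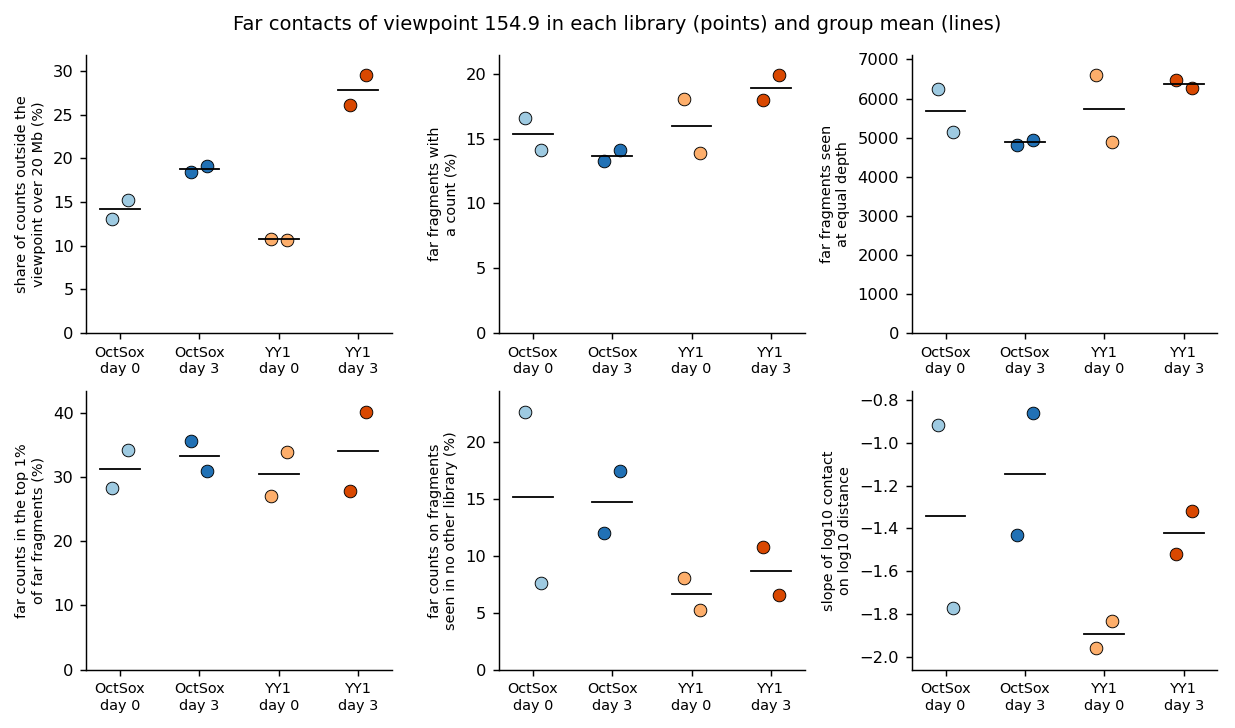
Values of 6 properties of the far contacts in each library (points) with the group mean (lines), by line and day; vertical axes start at 0 except for the slope. The share of counts over 20 Mb separates the days in both lines, at 13.1% and 15.2% against 18.4% and 19.1% in the OctSox line and 10.8% and 10.7% against 26.1% and 29.5% in the YY1 line.

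As a ratio of day 3 to day 0, the rise in the YY1 line was larger beyond 50 Mb than just beyond 20 Mb. In percentage points the band at 20 to 30 Mb rose more than each band beyond 50 Mb. At 20 to 30 Mb the far fragments held 4.13% and 4.13% of the counts outside the viewpoint at YY1 day 0 and 8.5% and 5.86% at day 3, a ratio of means of 1.74. At 50 to 60 Mb they held 0.522% and 0.541% against 1.66% and 2.04%, a ratio of 3.47, and at 80 to 90 Mb 0.166% and 0.124% against 0.678% and 0.727%, a ratio of 4.85. The YY1 days were separated in each of the 14 bands of 10 Mb, with day 3 the higher. In the OctSox line the ratios lay between 1.13 and 1.72, and the days did not overlap in 5 of the 14 bands. Bands within 20 Mb were not computed. On the same base 87.1% of all 155 windows of 1 Mb were separated upward in the YY1 line and 1.94% downward. For OctSox these shares were 23.2% and 0%. The bands share this base, which itself moved between the days.

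Single windows were tested for a change with day by edgeR's quasi-likelihood test over all 1 Mb windows of the chromosome, with Benjamini-Hochberg adjustment at 0.05. In the YY1 line 1 of 131 far windows was called, against 1.96% of all 153 windows tested. It was the window from 80 to 81 Mb, 74.5 Mb away. Its counts were 109 and 99 on day 0, and 527 and 2417 on day 3. EdgeR gave a log2 fold of 2.87 ± 0.66 (SE), with 0.0134 as the adjusted p.

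Leaving out 1 library leaves a group of 1, which is then assumed to vary like the other group. Leaving out day 0 replicate 1 or 2 gave an edgeR adjusted p of 0.0662 or 0.217, and leaving out day 3 replicate 1 or 2 gave 0.000242 or 0.0764, while the log2 fold stayed between 2.26 and 3.05. When fragments with a count were counted in place of counts, the log2 fold change was 0.78 and the adjusted p 0.213: 6.73% and 3.85% of its 312 fragments were seen at day 0 and 7.05% and 15.1% at day 3. OctSox libraries held 896 and 391 counts in this window on day 0, and 191 and 1208 on day 3. DESeq2 gave it no adjusted p and called 1 other far window, from 129 to 130 Mb, lower at day 3 (7.19% of all windows tested were called). Its log2 fold was -0.99 with an adjusted p of 0.0493 by DESeq2, and -0.75 with 0.211 by edgeR. The sign depended on the scaling: with libraries scaled by their total counts outside the viewpoint, edgeR gave this window a log2 fold of 0.61 (adjusted p 0.106).

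EdgeR called 0 of 132 far windows in the OctSox line (0% of all 154); 0 had an unadjusted p under 0.05, and DESeq2 called 0. Smallest in p was the window from 35 to 36 Mb, whose counts were 607 and 225 on day 0, and 841 and 1740 on day 3. Its log2 fold was 1.17 ± 0.73 (SE), with 0.996 as edgeR's adjusted p. Over both lines edgeR called 0 of 132 (0% of all windows), where 8 had an unadjusted p under 0.05. DESeq2 called 0 far windows over both lines and 2.6% of all 154 windows tested, each of them lower at day 3. The window from 102 to 103 Mb came first, with 1261 and 961 counts against 2223 and 1495 in the OctSox line and 714 and 769 against 1431 and 7072 in the YY1 line, and an adjusted p of 0.492 by edgeR.

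These folds are relative to a scaling, here TMM, that sets a weighted trimmed mean of the log2 folds between libraries near 0. The median log2 fold change of the far windows was 0.00 in the OctSox line and 0.56 in the YY1 line, against -0.12 and 0.42 over all windows tested. With libraries scaled by their total counts outside the viewpoint the far medians were 0.46 and 1.93. On that scale edgeR called 108 of 131 far windows in the YY1 line, each of them up at day 3 (70.6% of all windows tested were called higher), and 0 of 132 in the OctSox line, where 120 had a fitted fold above 0. As a share of the counts outside the viewpoint, 126 of 133 far windows had both YY1 day 3 libraries above both day 0 libraries (87.1% of all 155 windows) and 0 had both below (1.94%). For OctSox these numbers were 36 (23.2%) and 0 (0%), and in 29 far windows all 4 day 3 libraries lay above all 4 day 0 libraries (18.7%).

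**Figure D5:**
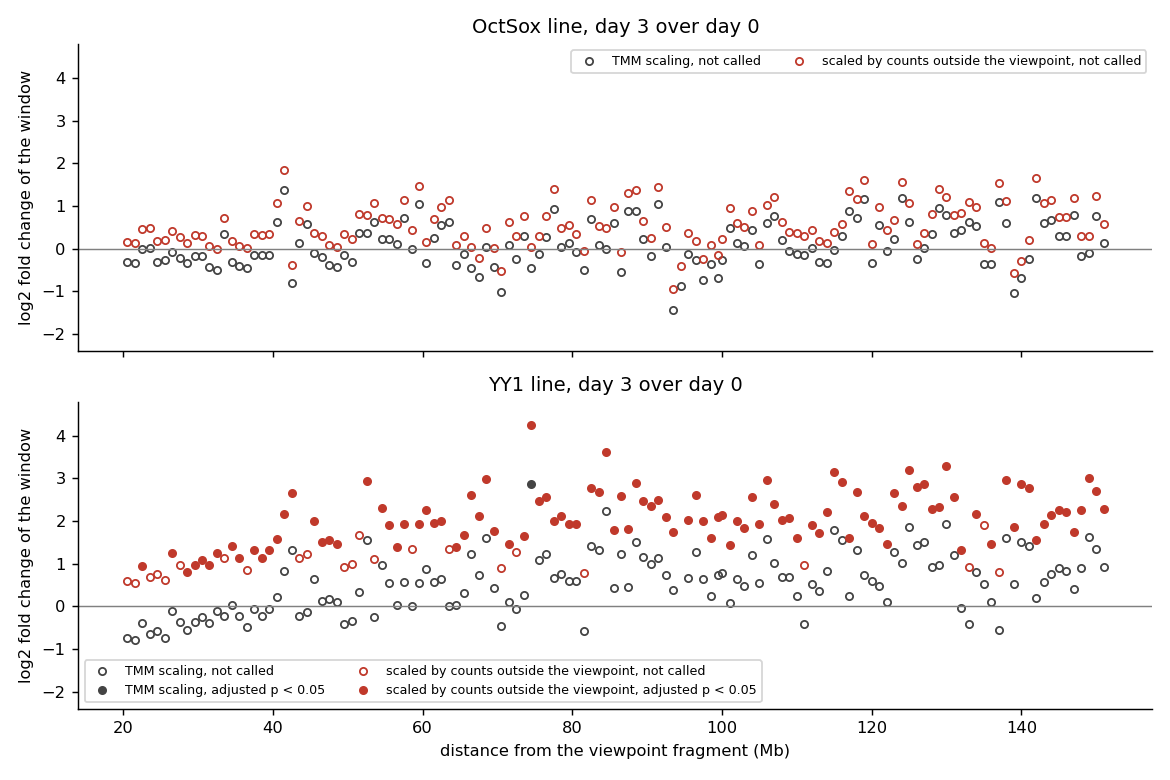
Log2 fold change, day 3 over day 0, of each far 1 Mb window against its distance from the viewpoint fragment (Mb), in the OctSox line (upper panel) and the YY1 line (lower panel), under TMM scaling (grey) and scaling by the counts outside the viewpoint (red). Filled points have an edgeR adjusted p under 0.05: 1 window under TMM and 108 under total-count scaling in the YY1 line, none in the OctSox line.

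The shape of the far profile was also compared within the far counts alone. As a share of the counts over 20 Mb, 59 far windows in the YY1 line had both day 3 libraries above both day 0 libraries (38.1% of all 155 windows) and 16 had both below (24.5%, nearer windows included). OctSox had 13 and 5 such windows (8.39% and 4.52%). Over both lines 0 far windows were separated in either direction (0% higher and 0.645% lower). The blocks of high contact were seen at both days: in the block from 131 to 135 Mb 69.0% ± 11.7 of the fragments were seen at day 0 and 61.1% ± 11.9 at day 3, and in the block from 116 to 118 Mb 62.7% ± 11.1 and 55.7% ± 11.7 (SD, n = 4).

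EdgeR called no single far fragment for the day. In the YY1 line 0 of the 3877 far fragments that passed the filter on low counts were called (0% of all 6707 tested), where 273 had an unadjusted p under 0.05 and DESeq2 called 146 (2.42% of all tested). OctSox libraries gave 0 of 2477 (0% of 4840), where 104 had an unadjusted p under 0.05 and DESeq2 called 43 (1.05%). Over both lines it was 0 of 6144 (0% of 9241), where 618 had an unadjusted p under 0.05 and DESeq2 called 77 (0.974%). A fragment passed the filter through the group where it was high, so these fragments are not a sample of all far fragments.

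The far fragment with the smallest p in the YY1 line, from 128641897 to 128644070 and 26.3 Mb away, held 0 and 1 counts on day 0, then 94 and 404 on day 3. The fitted log2 fold was 8.96 ± 1.97 (SE), and the adjusted p was 0.639 by edgeR and 0.00328 by DESeq2. The fragment from 57011565 to 57015400, 97.9 Mb away, had 0 counts in all 6 other libraries and 52 and 412 at YY1 day 3. Set against a limit of 3 counts over the YY1 day 0 group, its day 3 share of the counts outside the viewpoint was at least 235-fold higher. This bound covers counting error only and holds for that base, which itself moved between the days. EdgeR's adjusted p was 0.639.

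The fragment from 125789650 to 125793524, 29.2 Mb away, held 0 counts in both OctSox libraries of day 0, then 104 and 381 on day 3. As a share of the counts outside the viewpoint it was at least 163-fold higher by the same bound, and edgeR's adjusted p was 0.826. YY1 libraries held 32 and 20 counts there on day 0, then 79 and 87. The fragment from 123236612 to 123241519, 31.7 Mb away, was at 0 in all 4 day 3 libraries and had 67, 198, 54 and 128 counts at day 0 (OctSox, then YY1). As a share of the counts outside the viewpoint it was at least 117-fold lower at day 3 by counting error. Its adjusted p over both lines was 0.59 by edgeR and 0.000712 by DESeq2.

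The authors' deposited table for the YY1 line called 7 far fragments, all higher at day 3, of 673 far entries with an adjusted p. Over the whole chromosome, that table called 0.51% of its 2155 entries with an adjusted p. Its entries are unnamed and were placed here in order on those fragments whose median count reached 40, so each placement is inferred. The authors' means and the means of the counts at the placed far fragments correlated at 0.967 on a log scale. The 7 included the fragment from 128641897, with an adjusted p of 0.00393 in the authors' deposited table, and the fragment from 119221439 to 119224149, with 0.00246. The second held 0 and 4 counts on YY1 day 0, then 104 and 697. All 7 had an edgeR adjusted p of 0.639. The authors' deposited table for the OctSox line gave none of its 439 far entries an adjusted p.

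Between the lines, with day as a covariate, edgeR called 0 of 132 far windows (0% of all 154), where 15 had an unadjusted p under 0.05 and DESeq2 called 0. The fitted fold, YY1 over OctSox, was above 0 in 50 of the 132. The smallest p belonged to the window from 25 to 26 Mb, with 469, 170, 478 and 1246 counts in the OctSox libraries and 93, 123, 180 and 584 in those of YY1, and a log2 fold of -1.74 ± 0.56 (SE); edgeR's adjusted p was 0.443.

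Among single far fragments edgeR called 0 of 6144 between the lines (0% of 9241), where 661 had an unadjusted p under 0.05 and DESeq2 called 47 (0.628%). The fragment from 116525192 to 116526980, 38.4 Mb away, had 0, 2, 0 and 0 counts in the OctSox libraries and 44, 165, 55 and 414 in those of YY1. The groups did not overlap, and the edgeR adjusted p was 0.576, against 0.00281 by DESeq2. The fragment from 118903103 to 118904052, 36 Mb away, had 2, 0, 0 and 0 counts against 345, 124, 91 and 26, with an edgeR adjusted p of 0.576.

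The difference between the lines in the day effect was tested with an interaction term. It called 0 of 132 far windows (0% of all 154), where 1 had an unadjusted p under 0.05 and DESeq2 called 0, and 3 of 6144 far fragments (0.0325% of all 9241 tested). The fragment from 48262985 to 48265819, 107 Mb away, had 4141 counts in YY1 day 3 replicate 2 and at most 22 in any other library. The fragments from 99583914 to 99584493 and from 108801371 to 108804856 had 1917 and 1883 counts in that library and at most 34 and 55 in the others. The interaction called 0 far fragments when YY1 day 3 replicate 2, OctSox day 3 replicate 1 or YY1 day 0 replicate 1 was left out. It called some far fragments without each of the other libraries. Each of these fits leaves a group of 1 library. DESeq2 called 102 far fragments for this term (1.2% of all tested).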

How the data were processed

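Raw read counts per HindIII fragment of chromosome 4 were deposited by the authors, with a list of fragment positions from which counts were placed in order. Reads were aligned with Bowtie to mm9, per the submitters' processing notes; its version and how counts were made are not given in the sources used. The authors also deposited tables of their day comparison, which per the file headers hold a mean signal, a log2 fold change and p-values before and after adjustment. Comparison with the counts showed their fold to be day 0 over day 3, so its sign was turned.

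The fragment of highest pooled count was taken as the viewpoint, and it was left out with 1 neighbour on each side. Counts summed in 1 Mb windows (by fragment start) and counts of single fragments were tested over the whole chromosome with edgeR 4.0.16 in R 4.3.3 (filterByExpr, TMM, glmQLFTest, Benjamini-Hochberg at 0.05). The SE is the fold divided by the square root of F. DESeq2 1.42.0, other scalings, filters, window sizes, capped counts, single libraries left out and the replicate number as a block were alternatives. With 2 pairs per line and no shared source in the labels, replicate numbers were not taken to pair the libraries. Days were compared in each line (2 against 2 libraries) and over all 8 libraries with line as covariate, lines with day as covariate, and day effects by an interaction. Depth ran from 1318028 to 2279333 counts per library.

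Named windows and fragments are, per comparison, those past the threshold or else the smallest p-values, the windows of highest and lowest contact, the fragments of highest share and the most counted fragments of 1 library. The fragments and lists were chosen with earlier results of these data known. Local ratios, steps, 100 kb bins, ranks by median, the 43 to 47 Mb stretch and fragments seen in 7 or 8 libraries over 80 Mb away were chosen after seeing the data. The tests were tried on simulated data. No mm9 genome or annotation was used here, so no gene or sequence is given. Other steps used Python 3.11.15 with scipy 1.17.1, pandas 2.3.3, numpy 2.4.6 and, for figures, matplotlib 3.10.9.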

Additional observations from a re-analysis of the deposited data

Results flagged for a closer look

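At 3 far fragments the day effect differed between the lines by the interaction test of edgeR. The interaction log2 fold change was 10.88 at the fragment from 48262985 (adjusted p 5.2e-05), 13.16 at the fragment from 99583914 (adjusted p 0.000502) and 12.10 at the fragment from 108801371 (adjusted p 0.00578). At each, most counts of the 8 libraries came from YY1 day 3 replicate 2, with 4141, 1917 and 1883 counts, and the other YY1 day 3 library had 0, 0 and 37. DESeq2 gave adjusted p-values of 0.562, 0.218 and 0.00243.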

How the results depend on the processing

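Calls among far windows and fragments depended on the setting. Of all 153 windows tested for the YY1 day effect, 3 were called in the main fit. Calls among all windows were 110 with total-count scaling, 8 scaled by far counts, 6 with counts capped and 8 with the replicate block. Among far windows the 1 call became 108, 3, 2 and 2 in these settings. It became 0 with fragments counted, with 2 Mb windows and with 0.5 Mb windows, and ranged from 0 to 21 leaving out 1 library (21 without YY1 day 3 replicate 1). The day effect on windows over both lines gave 4 far calls with total-count scaling (2.6% of all 154 windows were called higher). For fragments DESeq2 called 43 (OctSox day), 146 (YY1 day), 77 (day, both lines), 47 (line) and 102 (interaction). With the filter on low counts replaced by a count in at least 2 libraries, there were 4 far calls for the day over both lines and 2 for the line. Of all 14991 fragments then tested, 4 and 6 were called. With the replicate block there were 3 and 2 far calls, and 3 and 4 calls among all 9241 fragments. Leaving out 1 library, calls ranged for windows from 0 to 2 (OctSox day), 0 to 2 (line) and 0 to 1 (interaction), and for fragments from 0 to 4 (OctSox day, highest without day 3 replicate 1), 0 to 197 (YY1 day, highest without day 3 replicate 1), 0 to 6 (day, both lines), 0 to 13 (line; both highest without OctSox day 0 replicate 2) and 0 to 10 (interaction). The cause was not tested. The rise in the share over 20 Mb was 13 points with 10 neighbours left out, 8.84 points over 30 Mb and 2.78 points with nothing left out, an alternative chosen after seeing the data. The interaction reversed without YY1 day 3 replicate 2 at the fragments from 48262985 (log2 values leaving out 1 library from -3.32 to 16.43) and 107885989 (-1.35 to 17.19). Same-numbered OctSox libraries deviated oppositely (correlation -0.505 over 133 windows), YY1 ones weakly together (0.084). With fragments counted these correlations were -0.622 and 0.272. Blocking OctSox with crossed numbers was chosen after seeing the data. With it edgeR called 0 of 132 far windows, where 12 had an unadjusted p under 0.05. Of all 154 windows 2 were called, both lower at day 3, and of all 4840 fragments 0.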
